A study of Mus musculus with 4 samples.

Results

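The type 2 cytokine cluster of mouse chromosome 11 was described through 9 genes in RNA sequencing libraries of T-helper 2 (Th2) cells. The genes were taken by symbol from the 50600 genes of the count tables: the cytokine genes Il4, Il13 and Il5, the genes Rad50, Kif3a and Irf1 beside them, Gm12214, an antisense gene annotated on the strand opposite Il5, and the cytokine genes Il3 and Csf2 farther along the chromosome. All 9 had a row in the tables. The libraries came from primary Th2 cells of C57BL/6NJ mice, and all 4 form 1 group, numbered as biological replicates 1 to 4, with no other cell type, genotype, treatment or time to compare with. Age and developmental stage are unknown and sex was not collected, per the labels. A named protocol document concerns the differentiation of CD4 T cells, and the headers of the files name 72 h, a time the labels do not explain. Each library has its own biosample but all name the same donor. The p-values below therefore rest on the spread between these libraries, pooled over genes in some tests, and that spread may be technical.

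Th2 cells are helper T cells that act against helminths and in allergy. Interleukin 4 drives Th2 differentiation and class switching to IgE, interleukin 13 drives mucus production and acts on epithelium, and interleukin 5 is the growth factor of eosinophils. Their genes lie in a conserved cluster whose control region sits within Rad50, and GATA3, STAT6 and NFAT are among the factors known to act on it. Il3 and Csf2 encode interleukin 3 and GM-CSF, growth factors of myeloid cells that activated T cells also make.

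Replicates 1, 3 and 4 held 2388255, 1929880 and 1713199 gene counts. Replicate 2 held 5016, with 1 count on all 9 genes together, and was left out of the values below unless it is named. A count in these tables is a fragment assigned to a gene on the strand of that gene, so every level below is a level on the annotated strand. Genes whose exons overlap an exon on the other strand took 90.7%, 94.2% and 91.3% of the counts in replicates 1, 3 and 4. Whether the counted strand is the strand of the RNA was not tested, since the sources used here do not give the library's strand chemistry. The 6 T cell markers (Cd3e, Cd3g, Cd4, Trac, Cd5 and Cd2) all lay above 1 TPM, as did 4 of 6 Th2 markers, with Ptgdr2 at 30.2 ± 3.10, Ccr4 at 14.0 ± 7.11, Ccr8 at 8.02 ± 5.34 and Gata3 at 6.87 ± 3.42 TPM (SD, n = 3). Above 1 TPM in the same test lay 43.1% of all genes. The Th2 marker Il1rl1 lay below 1 TPM (log2 difference -1.88, limma adjusted p = 0.0296) and Il17rb passed in neither direction. Of the T cell and Th2 markers named here, Cd3e, Gata3 and Ptgdr2 have exons on the other strand. TPM, a level corrected for length and depth, are counts divided by exonic length and scaled to the same total in each library. In bulk RNA, more cells that use a gene and more RNA per cell cannot be told apart.

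The 9 genes lie within 699.9 kb of chromosome 11 (build mm10). Kif3a (53567379 to 53601967, plus strand, 20 exons) ends 1014 bases before Il4 (53602982 to 53618669, minus strand, 7 exons). Il13 (53631324 to 53634702, minus strand, 4 exons) follows 12.7 kb after Il4, and Rad50 (53649519 to 53707319, minus strand, 25 exons) 14.8 kb after Il13. Il5 (53720794 to 53725106, plus strand, 4 exons) begins 13.5 kb after Rad50, and Irf1 (53770014 to 53778374, plus strand, 12 exons) 44.9 kb after Il5. Csf2 (54247271 to 54249667, minus strand, 4 exons) lies 468.9 kb beyond Irf1, and Il3 (54265303 to 54267277, minus strand, 5 exons) 15.6 kb beyond Csf2. Il4, Il13, Rad50, Kif3a and Il3 have no annotated exon on the other strand, whereas Il5, Csf2 and Irf1 do.

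Gm12214 (53723953 to 53724618, minus strand, 2 exons) lies with 100% of its 417 exonic bases inside exon 4 of Il5, the last of that gene, and covers 27.1% of the exonic bases of Il5. Gm12223 (54247600 to 54254495, plus strand, antisense biotype) overlaps 96 bases of exon 4 of Csf2, and Gm17334 (53772281 to 53773187, minus strand, annotated as protein-coding) overlaps 135 bases of Irf1, among them the whole of exon 4. The sequences below show the coding bases that have an exon annotated on the other strand, because fragments from these stretches were given to either gene by strand alone. They are written in the direction of the cytokine gene or of Irf1, with the bases covered by the opposite gene in capitals and the neighbouring bases of the spliced transcript in lower case (GENCODE vM21 transcripts, mm10). The Il5 stretch (capitals chr11:53723953-53724014, plus strand) ends with the stop codon TGA.
Il5: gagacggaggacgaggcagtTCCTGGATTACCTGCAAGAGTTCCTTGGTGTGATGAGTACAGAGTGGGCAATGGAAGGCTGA
Csf2 (capitals chr11:54247600-54247695, minus strand): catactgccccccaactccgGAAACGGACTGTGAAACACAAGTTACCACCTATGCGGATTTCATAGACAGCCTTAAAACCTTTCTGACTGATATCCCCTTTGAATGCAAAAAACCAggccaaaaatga
Irf1 (capitals chr11:53772839-53772938, plus strand): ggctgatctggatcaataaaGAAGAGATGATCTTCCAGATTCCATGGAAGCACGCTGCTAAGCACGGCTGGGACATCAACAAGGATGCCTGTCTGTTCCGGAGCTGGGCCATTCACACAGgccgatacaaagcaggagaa
The capitals are 62 of the 402 coding bases of Il5, with the other 355 bases under Gm12214 outside the coding part. They are 96 of the 426 coding bases of Csf2 and 100 of the 990 coding bases of Irf1.

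In each of these 3 pairs nearly all counts lay on the gene opposite the cytokine gene or Irf1. Gm12214 had 2593, 1927 and 2244 counts in replicates 1, 3 and 4, and Il5 had 16, 7 and 11. By the annotated strand, every library held far more counts on Gm12214 than on the whole of the eosinophil growth factor gene. If the counted strand were the reverse of the RNA's, which was not tested, these counts would lie on the strand of Il5, and likewise for the pairs of Csf2 and Irf1 below. Per kb of exon, Gm12214 had 6218, 4621 and 5381 counts against 10.4, 4.55 and 7.16 for Il5, a ratio of 597, 1015 and 752. Pooled over the 3 libraries, Gm12214 held 99.5% of the 6798 counts of the pair (exact 95% binomial interval 99.3 to 99.7%). Such intervals, here and below, cover counting error only, since the fragments carry no molecular identifiers and several may stem from 1 molecule.

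Gm12223 had 4247, 2516 and 2469 counts in replicates 1, 3 and 4, while Csf2 had 23, 6 and 28. The density ratio was 279.8, 635.4 and 133.6, and it was highest in replicate 3, where Csf2 had its lowest count. Gm12223 held 99.4% (99.2 to 99.5%) of the 9289 counts of this pair. Gm17334 had 237, 262 and 168 counts, while Irf1, an interferon-induced transcription factor, had 22, 6 and 8. The density ratio was 47.2, 191 and 92.1, and Gm17334 held 94.9% (93.0 to 96.4%) of 703 counts. In all 3 pairs the ranges of the 2 genes over the libraries did not overlap.

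**Figure D1:**
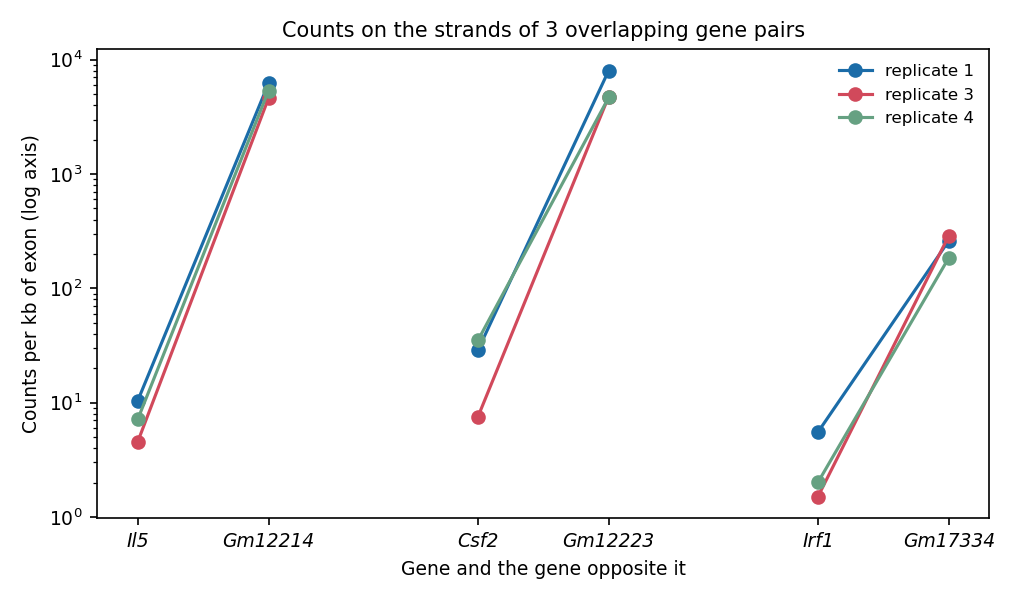
Counts per kb of exon (log axis) of Il5, Csf2 and Irf1 and of the gene annotated opposite each, with 1 line per library. Each line rises steeply from the named gene to its opposite gene, from 10.4 to 6218 for Il5 and Gm12214 in replicate 1, and the Csf2 and Irf1 points of replicate 3 are the lowest.

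The same held for most counts of the region. From 250 kb before Kif3a to 250 kb after Il3 the tables list 52 genes, of which 33 had a count in replicates 1, 3 and 4 together and 20 had 10 or more. Of the 20572 counts there, 93.4% fell on 4 genes that overlap another gene on the other strand: Gm12214, Gm12223, Gm17334 and Gm12224, the last opposite Acsl6, a fatty acid activating enzyme. The share was 92.7%, 95.5% and 92.5% in replicates 1, 3 and 4. Over the whole tables, genes with opposite-strand exons took 90.7%, 94.2% and 91.3% of the counts. A high share on such genes is therefore not particular to this region. The whole-table share takes in both genes of every pair, whereas the regional share is for the 4 named genes only. Acsl6 itself had 15, 6 and 6 counts against 1025, 898 and 635 for Gm12224. A further pair of this kind did not show the pattern: Sowaha had 2, 6 and 2 counts and Gm9945, opposite it, 0, 2 and 0. Neighbours without opposite-strand exons had few counts, among them Aff4 with 43, 14 and 20, Fnip1 with 22, 3 and 20, Uqcrq with 24, 3 and 5, Sept8 with 16, 4 and 11, Zcchc10 with 17, 3 and 8, and P4ha2 with 8, 1 and 1. Gm12214 alone made up 84.4%, 89.8% and 86.1% of the counts of the 9 genes.

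**Figure D2:**
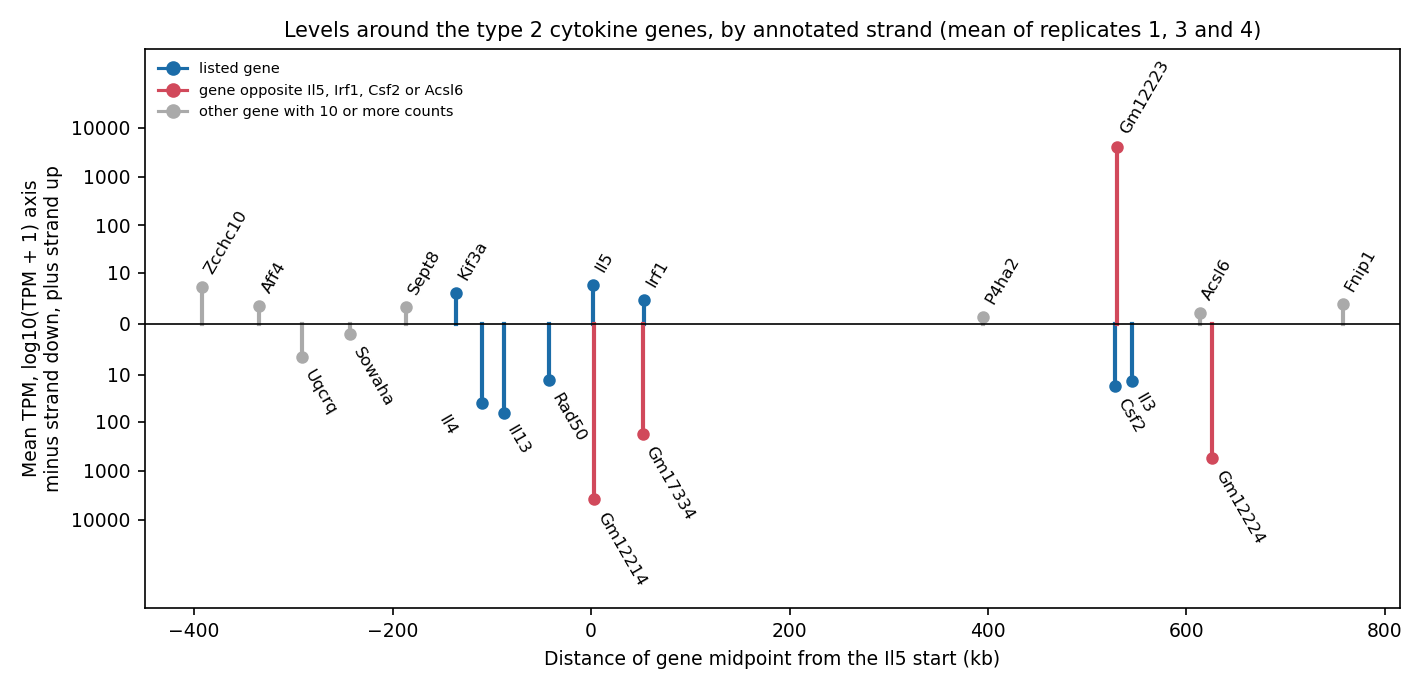
Mean TPM of replicates 1, 3 and 4 (log10(TPM + 1) axis) for each gene with 10 or more counts, placed by the distance of its midpoint from the Il5 start in kb, with plus-strand genes drawn upwards and minus-strand genes downwards. The genes opposite Il5, Irf1, Csf2 and Acsl6 (red) have the longest lines, upwards or downwards by strand, from 174 TPM for Gm17334 to 4079 TPM for Gm12223. Gm12214, a listed gene drawn in red, is at 3878 TPM. Among the other listed genes (blue), Il13 and Il4 have the longest lines.

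Of the 9 genes, 6 had a mean of 10 TPM or more. Gm12214 stood at 3722, 3373 and 4539 TPM in replicates 1, 3 and 4, and its mean of 3878 ± 599 TPM (SD, n = 3) placed it at rank 34 of all genes. Il13 was at 96.4, 18.8 and 81.9 TPM. Replicates 1 and 4 were high and replicate 3 was low, which gave a mean of 65.7 ± 41.3 TPM. Il4 was at 31.7, 47.6 and 40.6 TPM, with a mean of 40.0 ± 7.95 TPM, and was highest in the library where Il13 was lowest. Il5 was at 6.23, 3.32 and 6.04 TPM, with a mean of 5.20 ± 1.63 TPM. These levels rest on 342 counts for Il13, 204 for Il4 and 34 for Il5 over the 3 libraries.

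Csf2 was at 17.2, 5.47 and 29.5 TPM (mean 17.4 ± 12.03 TPM, or 11.3 TPM without replicate 4) and Il3 at 17.1, 2.32 and 21.5 TPM (mean 13.6 ± 10.04 TPM). Both myeloid growth factor genes were lowest in replicate 3, where they had 6 and 2 counts. Rad50, a subunit of the MRN complex of DNA break repair, was at 13.0, 9.78 and 17.3 TPM (mean 13.4 ± 3.75 TPM). Kif3a, a motor subunit of kinesin-2, was at 3.84, 2.85 and 3.06 TPM (mean 3.25 ± 0.522 TPM). Irf1 was at 3.31, 1.101 and 1.70 TPM (mean 2.04 ± 1.14 TPM). Replicate 3 was the lowest of the 3 libraries for 8 of the 9 genes, and the highest for Il4.

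**Figure D3:**
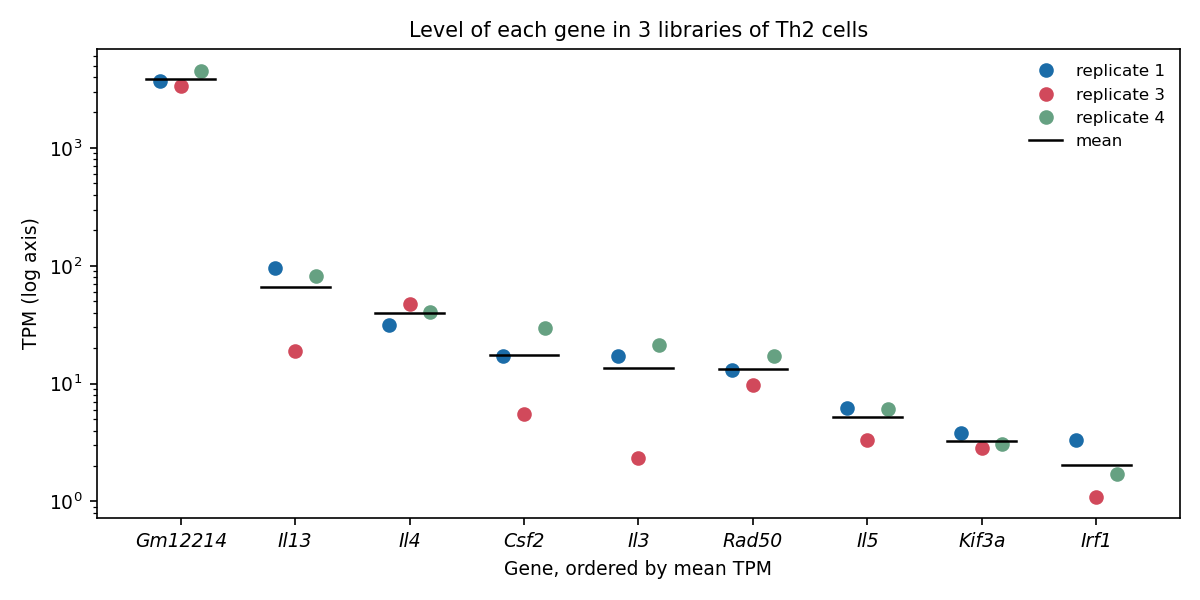
TPM (log axis) of the 9 genes in replicates 1, 3 and 4, ordered by mean (black line), with 1 point per library. Gm12214 lies between 3373 and 4539 TPM, above all other points, and replicate 3 (red) is far below the other libraries for Il13, Csf2 and Il3 but highest for Il4.

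In the order of the means, Gm12214 was followed by Il13, Il4, Csf2, Il3, Rad50, Il5, Kif3a and Irf1. This is an order on the annotated strand. If the counted strand were the reverse of the RNA's, which was not tested, each gene would be counted opposite its RNA. That includes the genes without opposite-strand exons, and no place in the order would then be known. In CPM, without length, only Gm12214 and Il13 kept their places, while Rad50 moved from 6 to 3 and Il5 from 7 to 9. The TPM ranges of neighbours did not overlap at 3 steps: Gm12214 was 59.0-fold above Il13, Il4 was 2.30-fold above Csf2, and Rad50 was 2.57-fold above Il5. At the other steps the TPM ranges overlapped. Within libraries, Csf2 was still above Il3, Il5 above Kif3a and Kif3a above Irf1 in 3 of 3, whereas Il13 was above Il4 and Il3 above Rad50 in 2 of 3. Relative spread was widest for Il3 (SD 73.6% of the mean), Csf2 (69.1%) and Il13 (62.8%) and narrowest for Gm12214 (15.4%), Kif3a (16.1%) and Il4 (19.9%).

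Each gene was set against a level of 1 TPM with limma on log2(TPM + 0.1), with Benjamini-Hochberg adjustment over all 14282 genes with 3 or more counts. Above it lay 8 of the 9 genes, beside 43.1% of all genes tested, 0 of the 9 lay below it, beside 8.31%, and Irf1 did not pass (log2 difference 0.82, SE 0.44, adjusted p = 0.167). The log2 difference from 1 TPM was 5.59 (SE 0.45, adjusted p = 9.86e-05) for Il13, 5.17 (SE 0.15, adjusted p = 5.43e-07) for Il4 and 2.21 (SE 0.29, adjusted p = 0.00111) for Il5. It was 3.57 (SE 0.22) for Rad50, 1.59 (SE 0.29) for Kif3a, 3.69 (SE 0.45) for Csf2, 3.13 (SE 0.62) for Il3 and 11.77 (SE 0.08) for Gm12214. The median over all genes tested was 0.77. Without replicate 3, Irf1 also passed (1.17, adjusted p = 0.0188), and the difference rose to 6.34 for Il13, 4.36 for Csf2 and 4.13 for Il3.

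Ratios between the genes (8 in all) were taken within each library, where depth cancels. With 3 libraries the exact two-sided sign-flip test cannot go below p = 0.25, or below 0.286 after adjustment over the 8 ratios, so no ratio could pass. Il13 over Il4 turned with the library. Per exonic base it was 3.04 (exact 95% counting interval 2.28 to 4.09) in replicate 1 and 2.02 (1.46 to 2.81) in replicate 4, but 0.395 (0.252 to 0.604) in replicate 3. The pooled ratio was 1.71 (1.43 to 2.04) and the mean log2 ratio was 0.43 ± 1.55 (SD, n = 3, exact permutation p = 0.75). It was -0.16 without replicate 1.

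Against Il5, both other Th2 cytokine genes were higher in 3 of 3 libraries. Il13 over Il5 was 15.5, 5.65 and 13.6 in replicates 1, 3 and 4, and Il4 over Il5 was 5.09, 14.3 and 6.72. Pooled, Il13 was 12.8 (9.01 to 18.8) times and Il4 7.52 (5.21 to 11.1) times Il5 (exact permutation p = 0.25 for each, the smallest possible). In replicate 3 the order of these 2 ratios was reversed. Gm12214 over Il5 had a mean log2 ratio of 9.56 ± 0.37 over the 3 libraries.

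Csf2 over Il3 was 1.00, 2.36 and 1.38, with a pooled ratio of 1.24 (0.806 to 1.95), whose interval includes equality. Kif3a, which neighbours Il4, was at 0.0839 (0.0603 to 0.115) times Il4 in the pooled counts. Rad50 was at 0.196 (0.167 to 0.230) times Il13 per exonic base, and Irf1 at 0.409 (0.249 to 0.674) times Il5. The direction of Rad50 over Il13 depended on length, since Rad50 has 5375 exonic bases and Il13 1205: without length correction the mean log2 ratio was 0.13 in place of -2.02.

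**Figure D4:**
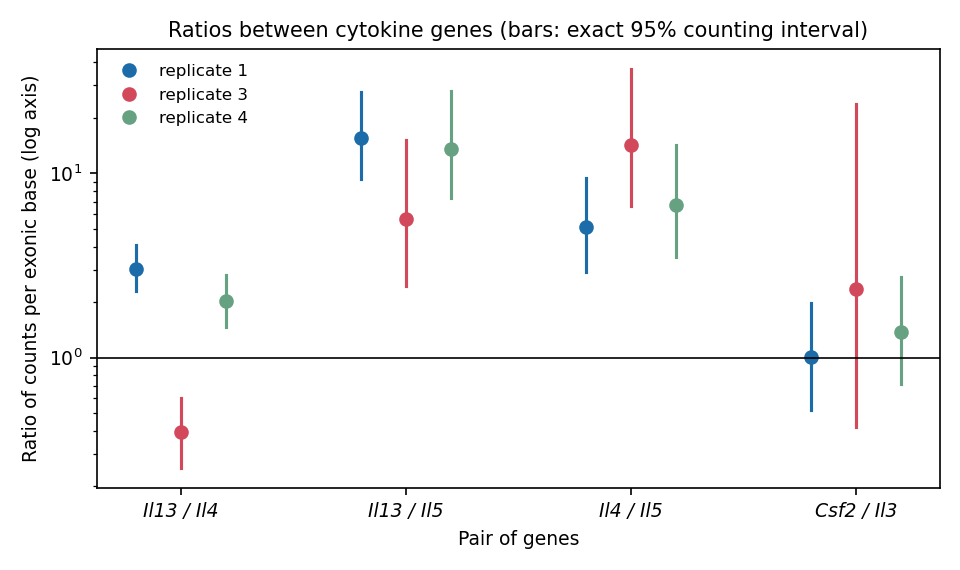
Ratio of counts per exonic base (log axis) for 4 pairs of cytokine genes in replicates 1, 3 and 4, with exact 95% counting intervals as bars and a line at equality. Il13 over Il4 lies above the line in replicates 1 and 4 (3.04 and 2.02) and below it in replicate 3 (0.395), while all points of both ratios to Il5 lie above it.

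Each library was then compared with the other 2 by the quasi-likelihood test of edgeR on the counts, over 6922 genes with a mean count of 10 or more. The test compares libraries of 1 group and takes the spread of the single library to equal that of the other 2. With replicate 3 alone, that spread (the biological coefficient of variation) was 0.141, against 0.310 with replicate 1 alone and 0.337 with replicate 4 alone. The p-values for replicate 3 thus rest on the closeness of replicates 1 and 4. This spread was pooled over the genes tested, so each gene was assumed to vary like others at its level. On that assumption, Il13, Il3 and Csf2 were called lower in replicate 3, and no member was called higher. This is 3 of the 9 genes lower, beside 12.4% of all genes tested, and 0 of the 9 higher, beside 2.79%. Il13 stood at 16.1 CPM (counts scaled by the library total alone, without length) in replicate 3 against 81.2 and 68.3 in replicates 1 and 4. Its log2 fold change was -2.08 (SE 0.34, edgeR adjusted p = 2.29e-07). Il3 was at 1.04 against 7.54 and 9.34 CPM (log2 fold change -2.81, SE 0.90, edgeR adjusted p = 0.0194). Its level in replicate 3 was under the 3-count floor of 1.55 CPM there. By counts alone, 2 in replicate 3 against 34 in the other libraries, the ratio per total count was 0.125 (exact 95% counting interval 0.0146 to 0.488). Csf2 was at 3.11 against 9.63 and 16.3 CPM (log2 fold change -1.87, SE 0.64, edgeR adjusted p = 0.0306).

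The other 6 genes were not called. Il4 was at 41.5 CPM in replicate 3 against 27.2 and 34.4 CPM, above both other libraries (log2 fold change 0.57, SE 0.32, edgeR adjusted p = 0.212). Il5 had a log2 fold change of -0.71 (SE 0.70), Irf1 of -1.06 (SE 0.72), Rad50 of -0.46 (SE 0.30), Kif3a of -0.13 (SE 0.56) and Gm12214 of -0.13 (SE 0.12). Of the opposite genes that are not among the 9, Gm12223 was not called (-0.17, SE 0.11), but was called lower with plain library totals (-0.30, edgeR adjusted p = 0.0307). Gm17334 was called higher in replicate 3 (0.60, SE 0.21, edgeR adjusted p = 0.0376). This call was lost with DESeq2 (adjusted p = 0.312), with plain library totals (0.135), without the filter on low counts (0.0555) and with replicate 2 included (0.184). With DESeq2 only Il13 was called (log2 fold change -1.98, adjusted p = 0.00915). DESeq2 gave no adjusted p for Il3 and Csf2, whose unadjusted p-values were 0.0751 and 0.105.

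Replicate 3 stood apart over many genes, and not alike in the strand classes. Genes without opposite-strand exons held 5.78% of its counts, against 9.26% and 8.67% in replicates 1 and 4. Of the 3060 such genes tested, 22.0% were lower in replicate 3 and their median log2 fold change was -0.82, whereas 4.82% of the 3862 genes with opposite-strand exons were lower, with a median of 0.12. The 6 T cell markers summed to 36.3 TPM in replicate 3, against 108 and 121 TPM in replicates 1 and 4. The part of either value in the levels of Il13, Il3 and Csf2 was not tested. When library totals were taken over the genes without opposite-strand exons, a scaling chosen after the data were seen, Il13 (-1.58, edgeR adjusted p = 0.000534) and Il3 (-2.33, edgeR adjusted p = 0.0474) were still lower. Csf2 was then not called (-1.38, edgeR adjusted p = 0.105). Il4 was called higher in replicate 3 under this scaling (1.07, SE 0.31, edgeR adjusted p = 0.00936), as were Gm12214 (0.37, edgeR adjusted p = 0.0489), Gm12223 (0.33, edgeR adjusted p = 0.0497) and Gm17334 (1.09, edgeR adjusted p = 0.000195). It moved the median of all genes from -0.11 to 0.38, and lower calls from 81.6% to 13.2% of all calls.

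**Figure D5:**
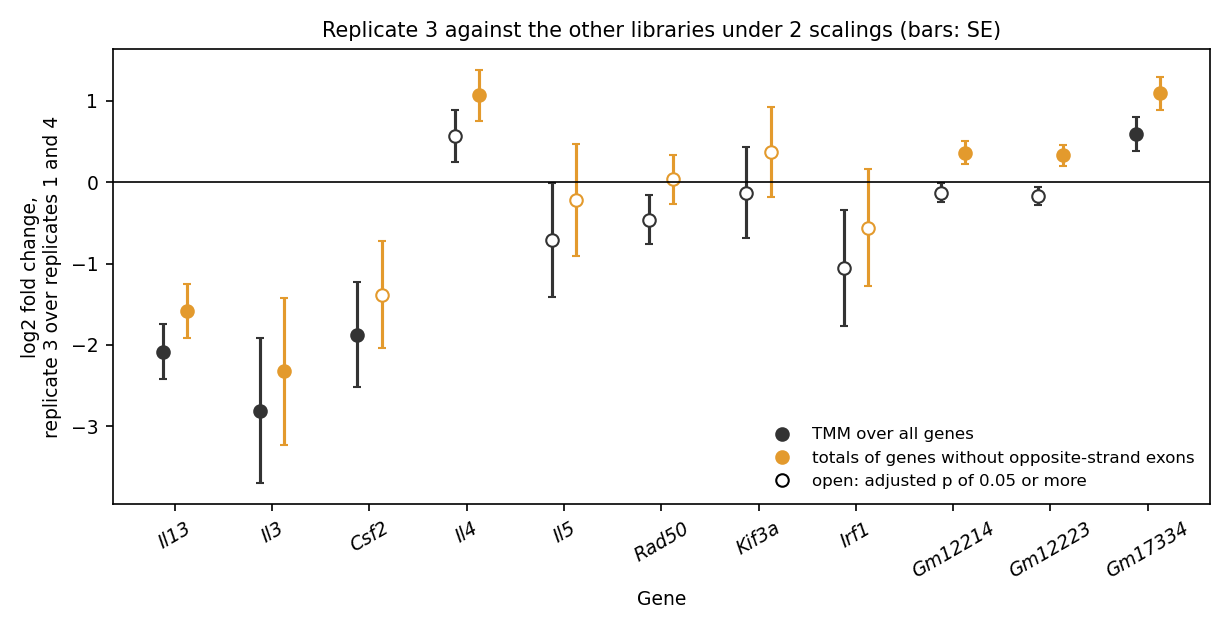
log2 fold change of replicate 3 over replicates 1 and 4 with its SE, for the 9 genes and the genes opposite Csf2 and Irf1, under TMM scaling (black) and under totals of genes without opposite-strand exons (orange), where filled points have an adjusted p under 0.05. Il13 is below zero and filled under both (-2.08 and -1.58), and Il4 lies above zero under both and is filled only under the second (0.57 and 1.07).

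Replicates 1 and 4 set none of the 9 genes apart. In all, 2 genes were called for replicate 1 (0.0289% higher and 0% lower) and 3 for replicate 4 (0.0144% higher and 0.0289% lower). At an unadjusted p under 0.05, 0 of the 9 genes passed for either library by edgeR with TMM scaling, and DESeq2 called 0 as well. With plain library totals Gm12214 had an unadjusted p of 0.0336 in replicate 4 (log2 fold change 0.33, edgeR adjusted p = 0.99992).

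Promoters are shown for the 5 cytokine genes, of which Il13, Il3 and Csf2 were called lower in replicate 3 and Il4 and Il5 were not. RefSeq (GRCm38.p6) has a start for 7 of the 9 genes. Each sequence is the 250 bases before the start, in the direction of the gene. For Csf2 the RefSeq start lies upstream of the first base of the counted gene (54249667), so the bases between are not shown. Capitals mark the letters GATA or their reverse complement TATC, the core of GATA factor sites, and GGAAA or TTTCC, the core of NFAT sites, searched on both strands. The palindromic STAT6 motif, searched too, is not marked.
Il4 (chr11:53618666-53618915, minus strand): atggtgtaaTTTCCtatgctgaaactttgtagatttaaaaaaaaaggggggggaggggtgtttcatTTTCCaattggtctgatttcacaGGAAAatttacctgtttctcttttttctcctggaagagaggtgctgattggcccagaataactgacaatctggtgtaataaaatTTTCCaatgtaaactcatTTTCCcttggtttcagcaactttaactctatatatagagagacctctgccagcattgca
Il13 (chr11:53634703-53634952, minus strand): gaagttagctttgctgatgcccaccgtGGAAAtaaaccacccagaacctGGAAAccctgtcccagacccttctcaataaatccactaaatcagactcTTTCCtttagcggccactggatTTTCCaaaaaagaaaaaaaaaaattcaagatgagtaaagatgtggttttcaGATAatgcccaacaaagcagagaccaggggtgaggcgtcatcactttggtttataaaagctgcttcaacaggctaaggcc
Il5 (chr11:53720544-53720793, plus strand): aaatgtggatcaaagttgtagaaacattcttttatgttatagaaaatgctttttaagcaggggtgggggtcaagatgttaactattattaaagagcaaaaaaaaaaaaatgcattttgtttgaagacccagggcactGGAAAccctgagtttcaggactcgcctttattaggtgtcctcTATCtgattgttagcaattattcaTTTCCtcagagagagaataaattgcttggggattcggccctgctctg
Il3 (chr11:54267280-54267529, minus strand): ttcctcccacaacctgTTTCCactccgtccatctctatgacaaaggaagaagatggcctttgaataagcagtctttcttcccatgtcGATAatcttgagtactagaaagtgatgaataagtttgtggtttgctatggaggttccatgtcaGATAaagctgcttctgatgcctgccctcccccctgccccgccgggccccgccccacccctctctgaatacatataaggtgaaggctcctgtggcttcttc
Csf2 (chr11:54249900-54250149, minus strand): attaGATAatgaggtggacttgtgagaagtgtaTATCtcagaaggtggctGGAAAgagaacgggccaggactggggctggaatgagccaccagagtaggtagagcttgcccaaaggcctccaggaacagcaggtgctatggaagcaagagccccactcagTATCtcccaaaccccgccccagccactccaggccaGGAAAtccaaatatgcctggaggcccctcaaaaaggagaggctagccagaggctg
The Il4 window held 5 GGAAA matches and 0 GATA matches, and it was the only one of the members' windows with the palindromic STAT6 motif (1 match). The window before a further RefSeq start of Il4, at chr11:53617339-53617588, held 3 GATA matches and 0 GGAAA matches. The Il13 window held 4 GGAAA matches and 1 GATA match, which begins 80 bases before the start. The Il5 window held 2 GGAAA matches and 1 GATA match, which begins 71 bases before the start. Il3 had 2 GATA and 1 GGAAA matches and Csf2 had 3 and 2. Kif3a had 0 and 1, and the windows of the Irf1 starts had 0 GATA matches with 2 and 0 GGAAA matches. Among 32851 promoter windows of this length, GATA was found in 53.6%, GGAAA in 55.6% and the STAT6 motif in 5.85%. Matches describe the letters and are neither sites nor causes.

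Genes known to act on the cluster were measured on their annotated strand as well. Of 25 regulators, 16 lay above 1 TPM (beside 43.1% of all genes tested), 8 passed in neither direction and 1 had too few counts to be tested. Their median log2 difference was 2.41, against 0.77 over all genes tested. The highest was Junb at 129 ± 48.4 TPM, an AP-1 subunit with opposite-strand exons. It was followed by Irf4, needed for Th2 differentiation, at 102 ± 10.5 TPM, the AP-1 subunit Jund at 37.6 ± 17.5 TPM, and Batf, a partner of Irf4, at 36.8 ± 19.5 TPM. Of these, Irf4 and Batf have no opposite-strand exons. Of the 25, 12 have exons on the other strand.

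Of 19 receptor and signalling genes for these cytokines, 10 lay above 1 TPM, 4 in neither direction and 5 were not tested, with a median of 1.98. Of all genes tested, 43.1% lay above 1 TPM, with a median of 0.77, a share that leaves out untested genes. Jak2, a receptor kinase of the interleukin 3, interleukin 5 and GM-CSF receptors, was at 30.3 ± 17.3 TPM. Stat5a was at 7.53 ± 1.70, Stat6 at 5.89 ± 3.15 and Cish, a STAT5-induced inhibitor, at 5.68 ± 1.46 TPM. Stat5a, Stat6 and Cish have opposite-strand exons, and Jak2 has none. Il13ra1, Il13ra2, Il5ra and Csf2rb, the shared beta chain of the interleukin 3, interleukin 5 and GM-CSF receptors, had 0 counts. Of 17 other T cell cytokine genes, 8 lay above 1 TPM, 6 in neither direction and 3 were not tested. This again stands beside 43.1% above among all genes tested. Il21 was at 227 ± 79.4 TPM, with Gm12534 on its other strand, Il2 at 16.4 ± 9.88, Lta at 11.8 ± 2.83 and Il10 at 9.69 ± 5.87 TPM. Ifng, Il17a and Il31 had 0 counts.

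Partners of Rad50, Kif3a and Irf1 were set against the same level, above which 43.1% of all genes tested lay, and 0 of them lay below it. Of the MRN group (Mre11a, Nbn and the kinase Atm), Nbn lay above 1 TPM at 3.77 ± 1.44 TPM, and the other two passed in neither direction. Among the kinesin-2 partners, Kif3c, which has opposite-strand exons, was at 77.2 ± 3.57 TPM and the other two passed in neither direction. Of 7 further interferon regulatory factors, 2 lay above 1 TPM: Irf4, and Irf5 at 521 ± 34.0 TPM, whose exons overlap those of Tnpo3 on the other strand.

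Other cells that make type 2 cytokines had few counts on the annotated strand of their marker genes. Of 11 markers of basophils, mast cells and eosinophils, 8 had too few counts to be tested, 0 lay above 1 TPM and 2 lay below. Among all genes tested, 43.1% lay above and 8.31% below. Of the 11, 6 had 0 counts, namely Mcpt8, Prss34, Fcer1a, Ms4a2, Kit and Prg2. The summed level of the 11 was 2.42, 1.33 and 1.72 TPM in replicates 1, 3 and 4. Of 5 markers of NKT and cytotoxic cells, 4 had too few counts to be tested and 0 lay above. Zbtb16, Klrb1c and Prf1 had 0 counts, and the list summed to 1.01, 0 and 2.38 TPM. No gene of these lists has opposite-strand exons, and genes without such exons held 9.26%, 5.78% and 8.67% of the counts in replicates 1, 3 and 4. If the counted strand were the reverse of the RNA's, which was not tested, low counts would not show that these cells were absent. Of 4 Th1 markers, Il12rb2, which has opposite-strand exons, lay above 1 TPM. Among B cell markers, Cd79a was above 1 TPM (5.80 ± 3.90 TPM), while Ms4a1 and Cd79b had 0 counts. Csf1r, opposite Hmgxb3, was above in the list of 5 myeloid markers (140.4 ± 9.75 TPM), while Adgre1, Itgam and Itgax had 0 counts. In the Th1, B cell and myeloid lists, 1, 3 and 4 markers had too few counts to be tested. The part of such cells in the cytokine levels was not tested.

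The genes whose centred log2(CPM + 1) was nearest to each Th2 cytokine gene over the 3 libraries were taken among 2601 protein-coding genes with a mean count of 30 or more. For Il4 they were Keap1 (119, 177 and 150 CPM in replicates 1, 3 and 4), Adpgk and Acp2, at Euclidean distances of 0.018, 0.035 and 0.037, and all have opposite-strand exons. For Il13 they were Cul3 (29.3, 5.18 and 23.3 CPM), Ipo5 and Flna, at 0.049, 0.062 and 0.075, and none has. For Il5 they were Sod1 (41.0, 24.4 and 39.1 CPM), Cc2d1a and Ccnd3, at 0.014, 0.024 and 0.032, of which Ccnd3 has such exons. With 3 libraries this likeness is a description only.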

How the data were processed

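RNA of Th2 cells was sequenced in 4 libraries of 1 group. The authors deposited raw counts: fragments per gene from featureCounts 1.4.6-p4 (GENCODE vM13 exons, strand setting 1) on STAR alignments (no version in the sources used here) to mm10, per the file headers. The labels call the assay total RNA, but a protocol document in them is named for poly(A) RNA. CPM and TPM were computed from the counts and exonic lengths (Python 3.11.15, pandas 2.3.3, numpy 2.4.6, scipy 1.17.1). Exon overlaps were found with bedtools 2.31.1 (1 base or more on the other strand). Symbols were matched by gene identifier (50376 of 50600 found), biotypes and coding parts came from GENCODE vM21 (same build), and promoters from RefSeq.

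Tests were limma 3.58.1 against 1 TPM, edgeR 4.0.16 (TMM, R 4.3.3) and exact sign-flip permutation tests, with Benjamini-Hochberg adjustment at 0.05. The alternatives were DESeq2 1.42.0, other scalings, filters, pseudocounts and libraries. The SE of an edgeR log2 fold change was computed as its absolute value divided by the square root of the F statistic. Counts were simulated with a dispersion of 0.08 for all genes and libraries, a value not estimated from these data, so the figures may differ for the real counts. On them edgeR recovered 43.5% of 200 genes changed 4-fold in replicate 3 (6855 genes, 3 false calls). In a fit of 14156 genes, limma called 200 of 200 genes set at 8 TPM. It also called 1 of 200 genes set at 1 TPM, the only genes among which false calls were counted. At these depths 3 counts are 1.26, 598.09, 1.55 and 1.75 CPM in replicates 1 to 4.

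The members and lists were chosen with earlier results of these data known. Named were all members, window genes that overlap a member or have 10 or more counts, up to 4 genes per list by TPM, defining markers without a count, and the 3 genes most like Il4, Il13 and Il5. Il1rl1 and Il17rb were named after their values were seen. No member's TPM held an outlier over the 4 libraries by Dixon's criterion (0.829). This does not clear replicate 2, which held 5016 counts and had 0 TPM for every member except Gm12214. Results for a few listed marker genes are not reported here.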

Additional observations from a re-analysis of the deposited data

How the results depend on the processing

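Replicate 2 bore most on the levels: with all 4 libraries only 1 of the 9 genes (Gm12214) lay above 1 TPM in place of 8, and the log2 difference of Irf1 turned to -0.25. Leaving out a library gave 8 to 9 genes above 1 TPM and 5 to 6 genes with a mean of 10 TPM or more. It left Gm12214 at 99.4 to 99.6% of its pair, Gm12223 at 99.2 to 99.6% and Gm17334 at 93.1 to 96.8%. Mean log2 ratios without a library ranged from -0.16 to 1.31 for Il13 over Il4, where the sign turned without replicate 1, and for Rad50 over Il13 the value without length correction was 0.13. For replicate 3, 1051 genes were called by edgeR, 56 by DESeq2 (1 of the 9 genes) and 2229 with the totals of genes without opposite-strand exons. Under those totals Gm12214 (0.37), Rad50 (0.037) and Kif3a (0.37) turned positive, as did Gm12214 with replicate 2 included (0.063). Csf2 was not called without the filter on low counts (-1.79, edgeR adjusted p = 0.0761). Lower calls made up 64.3% of the calls with DESeq2, 93.0% with plain library totals, 71.0% without the filter on low counts and 93.8% with replicate 2 included. For replicate 1, 1 gene was called without the filter on low counts in place of 2, and for replicate 4, 0 genes by DESeq2 and 0 with plain library totals in place of 3 (10 and 39 genes had an unadjusted p under 0.05). The cause of these changes was not tested. In CPM, without length, 4 in place of 6 genes reached 10. With no filter on low counts 2 of the 9 genes were called lower in replicate 3 in place of 3. No paired analysis was possible because all libraries form 1 group. Leaving a library out of the comparison of 1 library with 2 leaves no residual degrees of freedom, so it was not run. Depth limits Il3, Il5, Irf1, Kif3a and Csf2, which rest on 34 to 57 counts each.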
